A study of Mus musculus with 4 samples.

Results

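Hspa5, the Hsp70 chaperone of the endoplasmic reticulum (ER) lumen, and 9 further genes induced by the unfolded protein response were followed in mouse bone marrow-derived macrophages that lacked or carried Mettl3. The 10 genes were taken by name (Hspa5, Hsp90b1, Pdia4, Sdf2l1, Creld2, Manf, Dnajb9, Herpud1, Xbp1 and Edem1) as known targets of the transcription factors ATF6 and XBP1, and all 10 were found among the 55401 genes of the deposited table. Not all of them encode chaperones: Xbp1 encodes a transcription factor, and Herpud1 and Edem1 act in ER-associated degradation, which clears misfolded proteins from the ER. The group was chosen by name with measured values of these libraries in view. Which values these were is not recorded, so all differences between KO and WT libraries, pooled and within library number, are given as a description and no test of them is read.

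The macrophages were grown with M-CSF from 8-week mice of the strain C57BL/6 and co-cultured over 24 h with the MC38 line of mouse colon carcinoma cells. The 2 knockout libraries (KO 1 and KO 3) came from LysM-cre, Mettl3fl/fl mice and the 2 control libraries (WT 1 and WT 3) from Mettl3fl/fl mice without the driver, so both groups carried the floxed alleles. The driver is the lysozyme promoter, active in cells of the myeloid lineage, and Mettl3 is the methyltransferase that places N6-methyladenosine in mRNA. Poly(A) RNA was sequenced as strand-marked pairs. The submitters call the replicates biological without saying whether each was its own animal, so spreads and p-values measure the variation between these libraries only.

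The unfolded protein response is the reaction of a cell to misfolded protein in the ER. ATF6 is cut in the Golgi and enters the nucleus, IRE1 splices Xbp1 mRNA so that it encodes an active factor, and PERK phosphorylates eIF2alpha, which favours translation of ATF4 and, through it, CHOP. ATF6 and XBP1 raise the transcription of chaperones, folding enzymes and degradation factors, in part through the ER stress response element (ERSE), at which the CCAAT-binding factor NF-Y sits beside ATF6 or XBP1. Macrophages depend on this machinery to secrete cytokines, lysosomal enzymes and matrix proteins.

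The ERSE was looked for in the RefSeq promoters (GRCm38.p6, 250 bases before to 50 after the start), since it is the sequence through which ATF6 is known to act. The genes were picked as ATF6 and XBP1 targets, so its presence among them is no independent result. A promoter was listed for 9 of the 10 genes, all but Manf. The letters searched on both strands were CCAAT, any 9 bases and CCACG for the ERSE, ATTGG, any 1 base and CCACG for the related ERSE-II and TGACGTGG for the UPRE, an XBP1 element. An ERSE and an ERSE-II can share their CCACG, but none of the 9 promoters held both. The ERSE stood in the promoters of Hspa5, Hsp90b1 and Creld2, 3 of 9 genes (33.3%), against 0.137% of all 27025 genes with a listed promoter. Herpud1 held an ERSE-II, found in 0.0444% of genes, and 0 of the 9 held the UPRE, found in 0.714%. The sites found in these 4 genes are printed to show where the motif letters stand, each 5′ to 3′ in the direction of its motif, with the fixed letters of the motif in capitals.
Hspa5, chr2:34772025-34772043, ERSE: ttcaCCAATcggaggcctCCACGacgg
Hsp90b1, chr10:86705638-86705656, ERSE: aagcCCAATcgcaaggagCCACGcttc
Hsp90b1, chr10:86705533-86705551, ERSE on the strand opposite to the gene: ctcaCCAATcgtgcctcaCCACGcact
Creld2, chr15:88819520-88819538, ERSE on the strand opposite to the gene: tggaCCAATtgaggctcgCCACGagaa
Herpud1, chr8:94386377-94386387, ERSE-II: gctgATTGGgCCACGttgg

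The ERSE of Hspa5 began 65 bases before the start and that of Creld2 126 bases before it. Hsp90b1 held an ERSE at 212 and another at 107 bases before its start, and the Herpud1 site began 52 bases before the start. The 250 bases before the start of Hspa5 (plus strand, chr2:34771840-34772089) are printed because this gene differed most between the genotypes. Its ERSE letters are in capitals, and 4 copies of CCAAT, counting both strands, stood in the searched window. The RefSeq start lies inside the gene as the deposited table draws it.
Hspa5 promoter: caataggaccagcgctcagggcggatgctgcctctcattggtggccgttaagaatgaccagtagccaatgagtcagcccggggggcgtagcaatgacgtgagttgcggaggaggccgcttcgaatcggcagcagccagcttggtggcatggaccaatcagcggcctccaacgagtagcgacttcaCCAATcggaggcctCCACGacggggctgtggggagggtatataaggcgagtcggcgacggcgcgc
The promoters of Pdia4, Sdf2l1, Dnajb9, Edem1 and Xbp1 had no full match to these motifs in the windows. A match is a description of the letters and not of binding.

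The targeted gene and the state of the libraries come first. Mettl3 stood at 13.9 and 19.6 CPM (the count scaled for library size and composition) in KO 1 and KO 3, and at 18.3 and 23.2 CPM in WT 1 and WT 3, so the groups overlapped. A count over the whole gene can include exons outside the deleted part, so this does not check the labels. Total counts ran from 55100415 to 79209870, and the lowest count of any of the 10 genes in any library was 1291, for Creld2. Number separated the libraries strongly. Xist stood at 1161 and 1351 CPM in the libraries numbered 3 against 0.624 and 0.589 in those numbered 1, so number and a female or male pattern coincide and cannot be told apart. All 10 macrophage markers were detected, with sums of 43450 and 44630 CPM in the KO libraries and 41210 and 56280 CPM in the WT libraries. Lyz2 alone made up most of each sum, with 25450 and 25790 CPM in KO 1 and KO 3. It stood at 22070 and 40810 CPM in WT 1 and WT 3, so the high sum of WT 3 follows this 1 gene. Of 10 epithelial markers, looked at because of the MC38 cells, 6 including Epcam and Krt8 were at 0 in all 4 libraries and the sum did not pass 1.33 CPM. Among the B and plasma cell markers, Mzb1 and Tnfrsf17 were at 0 in all 4 libraries, and the list had sums of 200 and 181 CPM in the KO libraries and 256 and 178 CPM in the WT libraries. Of these sums Sdc1 alone gave 141 and 175.5 CPM in KO 1 and KO 3, and 214.5 and 170.1 CPM in WT 1 and WT 3. Other markers of this list were detected and differed by number. Ighm stood at 44.3 and 35.2 CPM in KO 1 and WT 1, against 2.3 and 4.4 CPM in KO 3 and WT 3. Cd79b stood at 9.9 and 5.2 CPM in KO 1 and WT 1, against 2.5 and 2.8 CPM in KO 3 and WT 3. Ms4a1 did not pass 0.256 CPM in any library.

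The levels of the 10 genes spanned about an order of magnitude per unit of length. Hsp90b1, which encodes GRP94, the Hsp90 chaperone of the ER, had the highest level, at 226 ± 43.7 FPKM (fragments scaled for transcript length and library size, deposited by the authors; SD, n = 2) in KO and 188 ± 19.7 FPKM in WT macrophages. Hspa5 followed at 190 ± 27.4 FPKM in KO and 115 ± 25.8 FPKM in WT macrophages. Pdia4, a protein disulphide isomerase that forms and rearranges disulphide bonds, had 103 ± 11.7 FPKM in KO and 80.6 ± 26.4 FPKM in WT macrophages. The order Hsp90b1, Hspa5, Pdia4 held in all 4 libraries, and Pdia4 was above Sdf2l1 in all 4. Among all genes of the table, these 3 ranked 167, 229 and 413 by mean FPKM.

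Sdf2l1 and Edem1 formed a middle step whose order was not fixed, with Sdf2l1 above Edem1 in 3 of 4 libraries. Sdf2l1, a lumenal partner of the DnaJ co-chaperones, had 42.0 ± 7.02 FPKM in KO and 34.2 ± 12.5 FPKM in WT macrophages. Edem1, a lectin-like mannosidase that routes misfolded glycoproteins to degradation, had 35.3 ± 0.521 FPKM in KO and 38.1 ± 1.72 FPKM in WT macrophages, and was above the 5 lowest genes in every library. Manf, Herpud1, Dnajb9, Creld2 and Xbp1 lay between 12.5 and 26.4 FPKM across the 4 libraries. No pair of neighbours in the order of these 5 kept the same order in all 4 libraries, while Manf was above Creld2 in all 4.

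**Figure D1:**
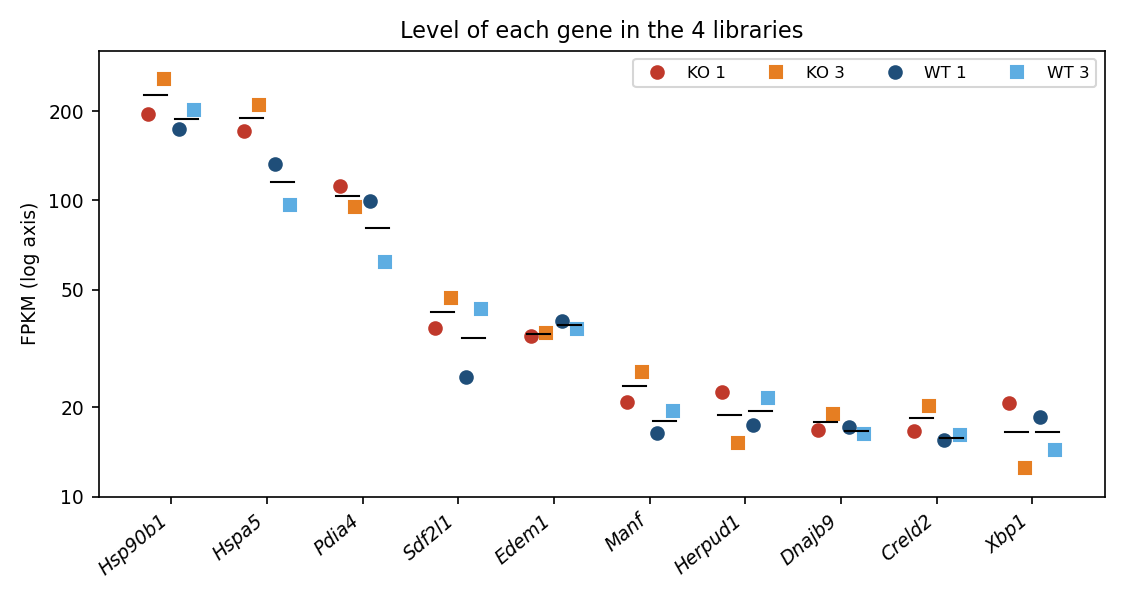
FPKM of each of the 10 genes (log axis), ordered by the mean over the 4 libraries, with KO libraries left of WT libraries for each gene. Points are single libraries and black lines are group means; Hsp90b1, Hspa5 and Pdia4 stand above the rest, and only Hspa5, Manf and Creld2 have both KO points above both WT points.

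Hspa5 showed the largest difference of the 10. It stood at 803 and 994 CPM in KO 1 and KO 3, against 632 and 448 CPM in WT 1 and WT 3. Both KO libraries lay above both WT libraries, KO 3 being the highest of all and WT 3 the lowest. The fold was 1.66 (log2 fold change 0.73 ± 0.25, SE of the fit over all genes, n = 2 per group). The log2 difference came to 0.35 for number 1 alone and to 1.15 for number 3 alone. The log2 fold change was 0.90 without KO 1, 0.57 without KO 3, 1.01 without WT 1 and 0.51 without WT 3. Its sign could not change, since both KO libraries lay above both WT libraries. Hspa5 lies on chromosome 2, 34771970 to 34777547, plus strand, and overlaps no other gene of the table.

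Hsp90b1 and Pdia4, its partners in the lumen, had smaller differences. Hsp90b1 stood at 874 and 1161 CPM in KO 1 and KO 3, against 788 and 893 CPM in WT 1 and WT 3, so the groups overlapped at KO 1 and WT 3. Its log2 fold change was 0.28 ± 0.22, with 0.15 within number 1 and 0.38 within number 3, and 0.06 without KO 3. Pdia4 stood at 297 and 255 CPM in KO 1 and KO 3, against 267 and 163 CPM in WT 1 and WT 3. Here WT 3 was far below the other 3 libraries, and WT 1 lay between the KO values. The log2 fold change of 0.36 ± 0.29 was 0.05 without WT 3 and 0.77 without WT 1, with 0.15 within number 1 and 0.65 within number 3.

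The ratio of Hsp90b1 to Hspa5 differed by library. The FPKM of Hsp90b1 over that of Hspa5 was 1.14 and 1.23 in KO 1 and KO 3, against 1.31 and 2.09 in WT 1 and WT 3. The ratio of WT 3 stood apart from the other 3. WT 3 thus combined the lowest Hspa5 and Pdia4 of the 4 libraries with an Hsp90b1 level that was second only to KO 3.

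Sdf2l1 stood at 45.6 and 58.3 CPM in KO 1 and KO 3, against 31.6 and 52.3 CPM in WT 1 and WT 3. Its low point was WT 1, where that of Hspa5 and Pdia4 was WT 3. The log2 fold change was 0.31 ± 0.31, with 0.53 within number 1 and 0.16 within number 3, and it was 0.72 without WT 3 but 0.00 without WT 1. Dnajb9, the ERdj4 co-chaperone that brings Hspa5 to IRE1 and helps to keep IRE1 inactive, stood at 47.4 and 54.2 CPM in KO 1 and KO 3, against 49.0 and 45.3 CPM in WT 1 and WT 3. The groups overlapped, and the log2 fold change was 0.11 ± 0.16, with -0.05 within number 1 and 0.26 within number 3.

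Manf and Creld2, small ER proteins that can be secreted under stress, had both KO libraries above both WT libraries. Manf stood at 81.7 and 104 CPM in KO 1 and KO 3, against 64.9 and 75.4 CPM in WT 1 and WT 3. Its log2 fold change was 0.41 ± 0.19, the second highest of the 10, with 0.33 within number 1 and 0.47 within number 3, and 0.22 without KO 3. The Manf row of the table spans chromosome 9, 106838312 to 106891915, and overlaps Rbm15b on its own strand and Dcaf1 on the other, so part of its count may belong to these neighbours. Creld2, an isomerase-like protein with EGF repeats, stood at 25.3 and 31.0 CPM in KO 1 and KO 3, against 23.8 and 24.2 CPM in WT 1 and WT 3. WT 1 and WT 3 were close to each other and KO 1 only just above them, and the log2 fold change of 0.23 ± 0.19 was 0.08 without KO 3.

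The degradation genes and Xbp1 had log2 fold changes near or below 0. Herpud1, a membrane adaptor of the ubiquitin ligase HRD1, stood at 58.5 and 39.7 CPM in KO 1 and KO 3, against 45.6 and 55.0 CPM in WT 1 and WT 3. The KO libraries were the highest and the lowest of the 4. KO minus WT came to 0.36 for number 1 and to -0.47 for number 3 on the log2 scale, and to -0.03 ± 0.25 with all libraries. Edem1 stood at 251 and 258 CPM in KO 1 and KO 3, against 285 and 261 CPM in WT 1 and WT 3, with both KO libraries below both WT libraries. Its log2 fold change was -0.10 ± 0.15, with -0.18 within number 1 but only -0.01 within number 3. Its pooled SD between libraries of a group, 0.07 on the log2 scale, was the smallest of the 10.

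Xbp1 stood at 74.7 and 45.4 CPM in KO 1 and KO 3, against 67.9 and 51.1 CPM in WT 1 and WT 3. Both libraries numbered 3 were below both numbered 1, and the log2 fold change between genotypes was 0.01 ± 0.31, with 0.14 within number 1 and -0.17 within number 3. It was 0.33 without KO 3 and -0.37 without KO 1. A gene count does not tell spliced from unspliced Xbp1 mRNA. The form that encodes the active factor differs by the stretch of 26 bases that IRE1 removes, bases 815 to 840 of transcript Xbp1-201 (GENCODE M21, chromosome 11), shown in capitals with 10 bases on each side because it marks what these counts cannot show.
Xbp1 stretch removed by IRE1: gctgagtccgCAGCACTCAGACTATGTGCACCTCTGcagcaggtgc

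**Figure D2:**
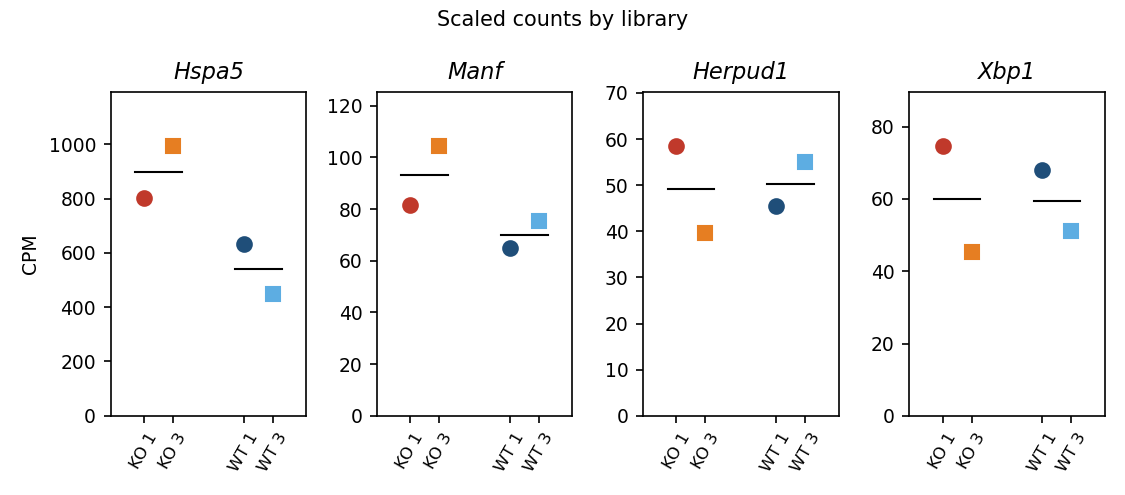
CPM of Hspa5, Manf, Herpud1 and Xbp1 in each library, KO libraries left of WT libraries, with group means as black lines and axes from 0. Both KO points of Hspa5 and Manf lie above both WT points, the KO points of Herpud1 enclose the WT points, and Xbp1 is lower in both libraries numbered 3.

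Across the group, 8 of 10 log2 fold changes were above 0 and the median was 0.25, from -0.10 to 0.73, beside a median of 0.00 over all 17260 tested genes. All 10 genes passed the filter on low counts. The median was 0.15 within number 1 and 0.31 within number 3. In 3 of the 10 both KO libraries lay above both WT libraries, beside 13.1% of the tested genes, and in 1 of the 10 both lay below, beside 13.4%. Within both numbers 6 of the 10 were higher in the KO library, against 25.6% of all genes, 1 was lower, against 27.1%, and 3 had opposite signs, against 46.6%. edgeR called 0 of the 10 and 0% of all tested genes (0 of 17260). An unadjusted p under 0.05 was given to 1 of the 10, Hspa5, and to 391 of all genes (2.27%). DESeq2 called 0 of the 10 and 0.291% of genes (73 of 25066), 0.168% as higher and 0.124% as lower. Nothing is read from these shares, since the choice of genes may have used this comparison.

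The summed level of the 10 genes was 647 and 737.5 FPKM in KO 1 and KO 3, against 556 and 528 FPKM in WT 1 and WT 3. Hspa5 and Hsp90b1 made up 56.6% and 63.3% of that sum in KO 1 and KO 3, and 55.2% and 56.5% of it in WT 1 and WT 3. In bulk RNA, fewer cells of a type and less RNA per cell cannot be told apart. Fibroblast markers summed to 352 and 578 CPM in KO 1 and KO 3, against 447 and 901 CPM in WT 1 and WT 3. All 10 of these markers lay below 0 within both numbers, beside 27.1% of all tested genes, opposite to Hspa5. For 0 of them did both KO libraries lie below both WT libraries, beside 13.4%, and 2 of them stayed under 1 CPM in all libraries. The part of these markers in the result was not tested.

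**Figure D3:**
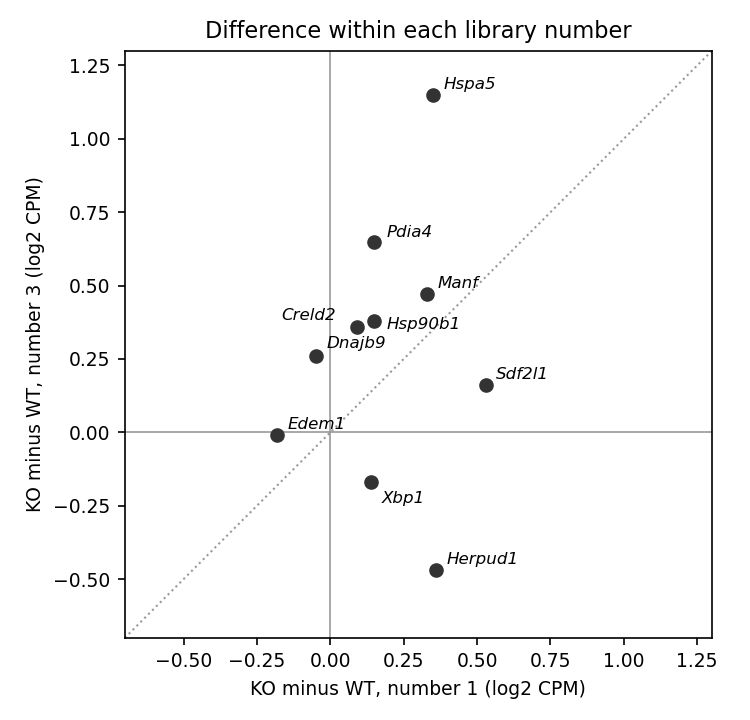
Log2 difference of KO minus WT within library number 1 (horizontal) and number 3 (vertical) for the 10 genes; each axis compares 1 KO with 1 WT library, and the dotted line marks equal differences. Hspa5 lies at 0.35 and 1.15, Herpud1 at 0.36 and -0.47, and Edem1 is the only gene below 0 on both axes.

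The 10 genes did not share a profile across the 4 libraries. The distance of a gene from their mean centred log2 CPM profile ran from 0.170 for Dnajb9 to 0.648 for Xbp1, with 0.634 for Hspa5. The 5 genes outside the group with the nearest profile over these 4 libraries were Tada3, Smchd1, Trpm7, Clcc1 and Mrps9. Their distances were 0.0324 to 0.0420, all nearer to the mean than any of the 10 themselves. They were picked as the nearest of the tested genes, so this does not measure how far the 10 scatter. The log2 fold changes of these 5 genes were 0.20 to 0.27.

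Other genes of the pathway were tested between the genotypes, in lists drawn up by function with earlier results of these data known. In the 5 lists of the pathway and of heat shock genes and 1 list of close relatives, edgeR called 0 of 84 tested genes (1 at an unadjusted p under 0.05), and DESeq2 and edgeR with a replicate block also called 0. Derl3 and Ern2 had too few counts to test. Of 22 other ER chaperones and folding enzymes, 15 were above 0 and the median log2 fold change was 0.12. Both KO libraries lay above both WT libraries for 4 of them, beside 13.1% of all tested genes. Within both numbers 12 were higher, beside 25.6%. Calr, the lectin chaperone calreticulin, stood at 1147 and 1777 CPM in KO 1 and KO 3, against 938 and 1405 CPM in WT 1 and WT 3 (log2 fold change 0.32 ± 0.33; edgeR adjusted p = 1). P4hb, the main protein disulphide isomerase, stood at 1041 and 1310 CPM in KO 1 and KO 3, against 965 and 830 CPM in WT 1 and WT 3 (log2 fold change 0.39 ± 0.21; edgeR adjusted p = 1). Ero1lb, an oxidase that recharges the isomerases, had 0.32 ± 0.16, and the low-level Pdia5 had -0.77 ± 0.59 (edgeR adjusted p = 1 for both).

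The other degradation genes lay close to 0, as Edem1 and Herpud1 did. Of 20 tested, 14 were above 0, and the median log2 fold change was 0.04, with -0.04 within number 1 and 0.11 within number 3. Within both numbers 3 were higher in the KO library, beside 25.6% of all tested genes, and 2 lower, beside 27.1%. Os9, a lectin of the HRD1 complex, had a log2 fold change of 0.06 ± 0.23 and Vcp, the ATPase that pulls substrates out of the membrane, one of 0.10 ± 0.19. Ube2g2, a ubiquitin-conjugating enzyme, had 0.62 ± 0.42 and stood high in KO 3 alone, at 65.7 CPM, against 29.2 in KO 1, 28.1 in WT 1 and 33.6 CPM in WT 3. Man1b1, an ER mannosidase, had -0.06 ± 0.14 (edgeR adjusted p = 1 for all 4).

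Of the sensors and regulators, 8 of 15 tested were above 0, with a median log2 fold change of 0.03. Atf6b, a relative of ATF6, had a log2 fold change of -0.10 ± 0.15 and Ppp1r15b, a subunit of the eIF2alpha phosphatase, one of 0.15 ± 0.15. Nfya, the subunit of NF-Y that contacts the CCAAT of the ERSE, stood at 74.5 and 89.7 CPM in KO 1 and KO 3, against 111 and 143.5 CPM in WT 1 and WT 3. Both KO libraries lay below both WT libraries, with -0.57 within number 1 and -0.68 within number 3. Its log2 fold change of -0.63 ± 0.21 did not pass the test (edgeR unadjusted p = 0.0316, adjusted p = 1).

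The other genes with an ERSE lay on both sides of 0. Outside the group, 17 tested genes had an ERSE in a listed promoter. Of these 8 were above 0 and 9 below it, and the median log2 fold change was -0.02. For 0 of them did both KO libraries lie above both WT libraries, beside 13.1% of all tested genes. Several on both sides of 0 lay near the floor, such as Gm20560 (at most 2.00 CPM, in KO 3) and Zfp57 (at most 0.258 CPM, in WT 3). The lowest value, -1.70 for Hnrnpa3, followed WT 1 alone, at 80.3 CPM against 11.9 to 16.8 CPM in the other libraries. Calr, Canx, Dnajc3 and Pdia6, the 4 ER chaperone genes among the 17, had log2 fold changes of 0.32, 0.13, 0.04 and 0.28.

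Close relatives of the 10 genes that sit in the cytosol or act beside them were set next to them. Of 12 relatives, 9 were above 0, with a median of 0.11. Hspa8, the cytosolic Hsp70, stood at 1825 and 1387 CPM in KO 1 and KO 3, against 2050 and 1182 CPM in WT 1 and WT 3, a log2 fold change of -0.01 ± 0.34 beside 0.73 ± 0.25 for Hspa5. Hsp90ab1, the cytosolic Hsp90, had 0.12 ± 0.19 beside 0.28 ± 0.22 for Hsp90b1, and Creld1 had -0.20 ± 0.24 beside 0.23 ± 0.19 for Creld2. Pdia3, the isomerase of glycoprotein folding, had 0.41 ± 0.22, with both KO libraries above both WT libraries (edgeR adjusted p = 1 for these 4 relatives). The difference between a gene and its relative was not tested. Of 12 heat shock genes outside the ER, 8 were above 0, with a median of 0.13; Dnaja1 had 0.41 ± 0.16 and Hspb1, listed under 3 CPM in every library, -1.67 ± 0.82 (edgeR adjusted p = 1 for both).

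The genes of the PERK arm had no common direction between genotypes. Of 12 genes, 9 were below 0 with all libraries. Within both numbers 2 of the 12 were below 0, beside 27.1% of all tested genes. For 0 of them did both KO libraries lie below both WT libraries, beside 13.4%. The median log2 fold change was -0.12, with 0.08 within number 1 and -0.42 within number 3. It was -0.01 with a replicate block, 0.54 without WT 3, 0.05 without KO 1, -0.38 without KO 3 and -0.34 without WT 1. Atf4 stood at 145 and 257 CPM in KO 1 and KO 3, against 115 and 282 CPM in WT 1 and WT 3 (log2 fold change 0.02 ± 0.52). Atf3 had 0.28 ± 0.43 and Ddit4 -0.60 ± 0.96 (edgeR adjusted p = 1 for all 3). Between library numbers the median of this list was 0.90 in number 3 against number 1, where that of the 10 genes was 0.03. The list split, however. In 7 of the 12 both libraries numbered 3 lay above both numbered 1, beside 26.2% of all tested genes. In 4 of the 12 both lay below, beside 25.2%.

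Compared by library number, the 10 genes split. Sdf2l1 and Hsp90b1 were higher in both libraries numbered 3 and Xbp1 and Pdia4 lower, 2 of 10 in each direction, where 26.2% and 25.2% of all tested genes had such a separation. edgeR called 0 of the 10 between numbers (1, Xbp1, at an unadjusted p under 0.05) and 1.03% of all tested genes (177 of 17260), 0.55% as higher and 0.475% as lower. Xbp1 was lower in number 3, with a log2 fold change of -0.56 ± 0.13, -0.72 between the KO libraries and -0.41 between the WT libraries (edgeR adjusted p = 0.126). DESeq2 called Xbp1 lower (adjusted p = 0.0299), where it called 6.21% of all genes, 3.33% in that direction. The count of 177 rested on few libraries: it was 1 without KO 1, 87 without KO 3, 4 without WT 1 and 57 without WT 3.

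The number difference of Hspa5 had opposite signs in the genotypes, with 0.31 for KO 3 against KO 1 and -0.50 for WT 3 against WT 1, and a pooled value of 0.01 ± 0.39. Ppp1r15a, the stress-induced eIF2alpha phosphatase subunit, and Ero1l, an ER oxidase, were named after their values were seen. They were the 2 of 84 tested genes of the pathway lists that edgeR called between numbers, beside 1.03% of all tested genes. Ppp1r15a stood at 82.7 and 81.7 CPM in KO 3 and WT 3, against 40.6 and 44.2 CPM in KO 1 and WT 1 (edgeR adjusted p = 0.0476), and Ero1l at 158 and 131 CPM in KO 3 and WT 3, against 593 and 629 CPM in KO 1 and WT 1 (edgeR adjusted p = 0.0179). The cell cycle genes summed to 257 and 243 CPM in KO 3 and WT 3, against 583 and 444 CPM in KO 1 and WT 1, and the part of this in the number differences was not tested.

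**Figure D4:**
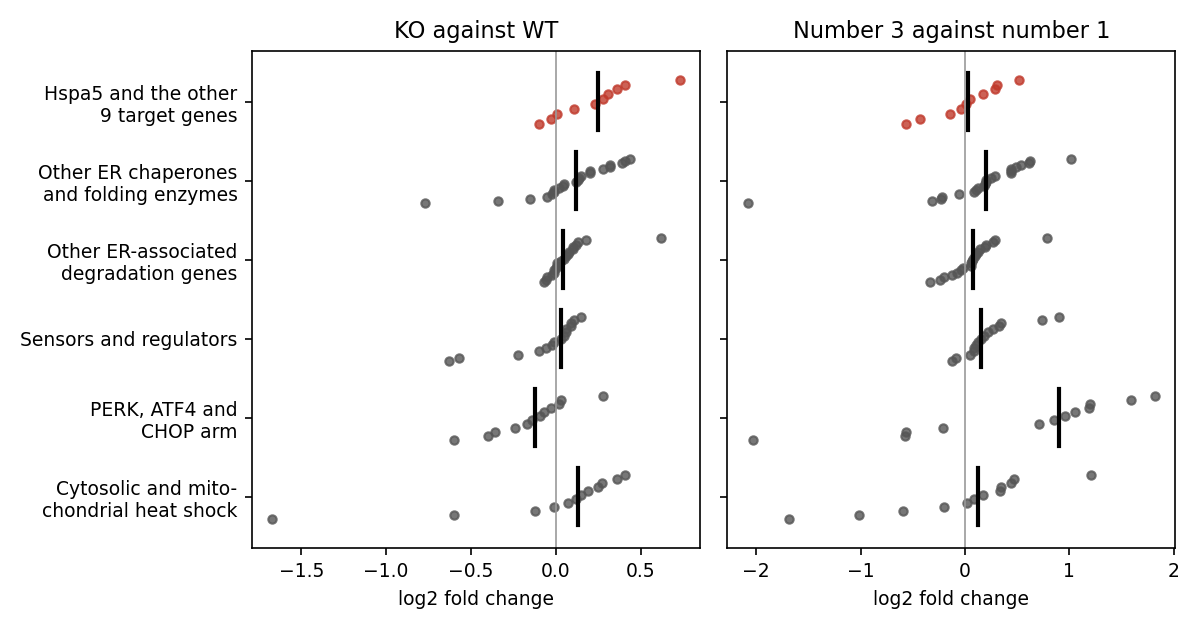
Log2 fold change (horizontal) of each gene in the Hspa5 group (red, top row) and in 5 other lists (grey), for KO against WT (left) and number 3 against number 1 (right); black bars are medians. The Hspa5 group has medians of 0.25 and 0.03, and the PERK arm medians of -0.12 and 0.90.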

How the data were processed

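Per the file headers, the authors deposited 1 table that pairs estimated counts with FPKM for each gene in each library. The deposited estimated counts were whole and not normalized; 39.1% of low counts were multiples of 4, so how many read pairs a count stands for is not known. The FPKM values were computed by the authors, who wrote 0 as 0.0001. A further 4 value columns matched no sample and were not used. Cutadapt 1.9, HISAT2 2.0.4, StringTie 1.3.4d, edgeR and DESeq2 are named in the submitters' processing notes. Neither the build nor the use of strand in counting is given in the sources used here. However, 94.2% of 55141 shared gene identifiers, and 9 of the 10 genes studied, had the start and end of GENCODE M21 (GRCm38), the build in which coordinates are given.

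Estimated counts, as deposited, went into edgeR 4.0.16 under R 4.3.3 (quasi-likelihood F-test, filterByExpr, TMM scaling, two-sided, Benjamini-Hochberg adjustment over all tested genes, threshold 0.05), without a block because the labels do not say what a number marks. CPM was computed on effective library sizes. Differences within a number are of log2(CPM + 0.1). A standard error is the absolute log2 fold change divided by the square root of F. DESeq2 1.42.0, limma 3.58.1 on log2(FPKM + 1) and log2(FPKM + 0.1), other scalings, no filter, a replicate block, and leaving out 1 library at a time were the alternatives. The tests were tried on simulated counts with planted differences larger than that of any of the 10 genes. That trial therefore does not show whether differences of their size could be called, and nothing here rests on it. The genes studied and the lists were chosen with earlier results of these data known. Named were the 10 genes, in each list the 2 with the highest mean FPKM and the 1 with the smallest unadjusted p in each direction, and the 5 nearest profiles (predicted symbols left out); others are marked or belong to a count. In the lists 2 older symbols were matched to the table's names (Selenos and Ufd1), and Ddit3 by its identifier. The value of 1 marker gene is not reported here.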

Additional observations from a re-analysis of the deposited data

Results flagged for a closer look

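For 3 of the 10 genes the difference between KO and WT had opposite signs in the libraries numbered 1 and 3, as it had for 46.6% of all tested genes. The difference within number 3 minus that within number 1 was -0.83 for Herpud1, -0.31 for Xbp1 and 0.30 for Dnajb9 on the log2 scale. With 1 library per genotype and number, the difference between numbers was not tested.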

How the results depend on the processing

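The median log2 fold change of the 10 genes was 0.23 to 0.26 under every other scaling, filter, tool and block run, and 0.17 to 0.33 with any 1 library left out. Of the 10, 7 to 9 were above 0 in these settings (8 as reported). No alternative called any of the 10 or any gene of the pathway lists between genotypes. Over all genes DESeq2 called 73 and, with the replicate block, 171, where edgeR called 0 with and without the block. Between numbers the 177 calls became 375 without a filter, 1557 with DESeq2, 104 with limma on log2(FPKM + 1), and 1 to 87 with 1 library left out. Of 192 recomputed gene and list values, 13 moved by more than the spread between replicates, all with a library left out. That spread comes from the same 2 libraries per group, so leaving 1 out could hardly shift a value beyond it. The count of 13 therefore does not measure how stable the values are. Leaving out 1 library mixes number with genotype: Herpud1 ran from -0.32 to 0.22 and Xbp1 from -0.37 to 0.33. The numbers are shared by the groups, and deviations of same-numbered libraries correlated at 0.54 over genes, but with 2 pairs this is a hint only; the block changed no call of the 10 genes.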
